A study of Macaca mulatta with 2 samples.

Results

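The pigment genes PMEL, TYRP1, DCT, MLANA and EDN3 were followed across the wall of the macaque eye. The 5 genes were picked by their symbols, and each matched 1 of the 26533 entries of the feature list. Together they held 1810 of the 1484784 UMIs (unique molecular identifiers, each standing for 1 captured transcript) over the tissue of NHP1, or 0.122%. In NHP2 they held 1091 of 805726, or 0.135%.

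The samples were 1 Visium section from each of 2 male rhesus macaques (Macaca mulatta), NHP1 aged 5 years and NHP2 aged 6 years. Each section came from a 4 mm punch through retina, choroid and sclera of a right eye, outside the injected blebs, taken 12 weeks after surgery. These areas were themselves uninjected, but every eye had received vector elsewhere under the retina: AAV2-CAG-hRPE65 in NHP1, and AAV8-GRK1-mScarlet and AAV8-GRK1-hRPGRco in separate blebs in NHP2. Both right eyes had received triamcinolone under the Tenon capsule and no adalimumab. A group is thus 1 section of 1 animal, so animal, vector and section cannot be told apart, and spots of a section are not replicates. The values are descriptions with 95% intervals for counting error only, and no test between the animals was made.

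Melanin is made in melanosomes, and the back of the eye holds 2 pigmented tissues of different origin. The retinal pigment epithelium (RPE) is a single cell layer of neural origin that lies behind the photoreceptors, recycles visual pigment and takes up shed outer segments. Choroidal melanocytes come from the neural crest and lie scattered among the vessels of the choroid, between RPE and sclera. PMEL forms the fibrils on which melanin is laid down, TYRP1 and DCT are enzymes of melanin synthesis related to tyrosinase, MLANA is a melanosome protein used as a melanocyte marker, and EDN3 is a secreted peptide that acts on melanocytes through the receptor EDNRB.

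In the RefSeq annotation of Mmul_10, the build to which the files refer, PMEL lies on the minus strand at chr11:55508762-55520715. TYRP1 and MLANA share a chromosome and the minus strand, at chr15:70880394-70896634 and chr15:77859791-77878200. DCT is on the minus strand at chr17:76221039-76265333 and EDN3 on the plus strand at chr10:94463973-94489462. MLANA overlaps 1 annotated gene on the opposite strand, LOC114672796. The 250 bases upstream of the annotated start of TYRP1, the member with the most UMIs, are shown 5′ to 3′ on the strand of the gene. They cover chr15:70896635-70896884 and hold no annotated exon.
TYRP1: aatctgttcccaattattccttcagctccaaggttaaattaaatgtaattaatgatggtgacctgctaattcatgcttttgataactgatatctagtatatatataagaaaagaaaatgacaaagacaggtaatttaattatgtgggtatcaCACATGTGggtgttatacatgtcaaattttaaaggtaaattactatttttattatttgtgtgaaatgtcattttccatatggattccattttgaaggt
Capitals mark matches on either strand to CATGTG, a form of the E-box that MITF and related factors can bind. TYRP1 held 2 overlapping matches, 1 on each strand, beginning 98 and 96 bases before the start. Of 20782 protein-coding genes, 8.26% had these letters in a window of the same length. TAATCC, the core read by OTX factors, was searched likewise on both strands and had 0 matches in the TYRP1 window, while 9.29% of all genes held it. These are matches of letters only.

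NHP1 had 534 tissue spots with a median of 1473.5 UMIs, and NHP2 had 470 with a median of 370.5. A spot is 55 µm wide and can hold several cells. Spots with fewer than 50 UMIs were left out of the layer comparisons, which removed 2 spots of NHP1 and 113 of NHP2. The sections had 4341 spot barcodes in common, which name positions of the capture array and not cells.

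TYRP1 and PMEL carried most of the member signal. TYRP1 had 959 UMIs over the tissue of NHP1 and 547 in NHP2, which came to 6.46 per 10000 UMIs (6.06 to 6.88) in the first and 6.79 (6.23 to 7.38) in the second. PMEL had 661 and 465, or 4.45 (4.12 to 4.80) and 5.77 (5.26 to 6.32) per 10000. The TYRP1 intervals of the animals overlapped, and the PMEL intervals did not. EDN3 followed with 137 and 72 UMIs, a level of 0.923 (0.775 to 1.09) and 0.894 (0.699 to 1.13) per 10000.

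MLANA was scarcer and less even between the animals. It had 52 UMIs in NHP1, at 0.350 (0.262 to 0.459) per 10000, and 7 in NHP2, at 0.0869 (0.0349 to 0.179). These intervals were separate. DCT had 1 UMI in NHP1 and 0 in NHP2, which allows up to 0.0372 per 10000 there. At this depth, then, a DCT level could not be measured in either section. At least 1 TYRP1 UMI was present in 50.6% of spots over tissue for NHP1 and in 38.7% for NHP2, and at least 1 PMEL UMI in 36.1% and 34.3%.

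The spots were assigned to layers without any of the members. A spot was marked when genes of a list had at least 2 UMIs and a level at least 2 times that of the section. The RPE list held 10 genes of the visual cycle and RPE transport, and the choroid list held 16 genes of vessels, mural cells, mast cells and macrophages. NHP1 had 46 spots marked by the RPE list alone, 37 by both lists and 42 by the choroid list alone. NHP2 had 33, 12 and 50. All 10 RPE genes were detected in the RPE-marked spots of each section, where the list stood at 255 per 10000 in NHP1 and 479 in NHP2, against 42.6 and 22.2 in choroid-marked spots. The marked spots were mixed. In choroid-marked spots of NHP1 the choroid list stood at 34.4 per 10000, beside 87.2 for photoreceptor, 54.7 for sclera and 44.9 for inner retina genes. In those of NHP2 it stood at 41.9, beside 236 for sclera genes, and RPE-marked spots had photoreceptor genes at 160 in NHP1 and 151 in NHP2. The groups are therefore spots enriched for a layer and not pure layers, and the part of the other layers in the member levels was not tested. TTR supplied 69.6% and 60.3% of the UMIs of this list. RPE65, the isomerase of the visual cycle, had only 36 and 16 UMIs, of which 0 lay in choroid-marked spots of either section. The remaining spots were split into 274 and 75 on the retinal side and 133 and 187 on the outer side, by whether genes of the retina or of choroid and sclera were more enriched.

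**Figure D1:**
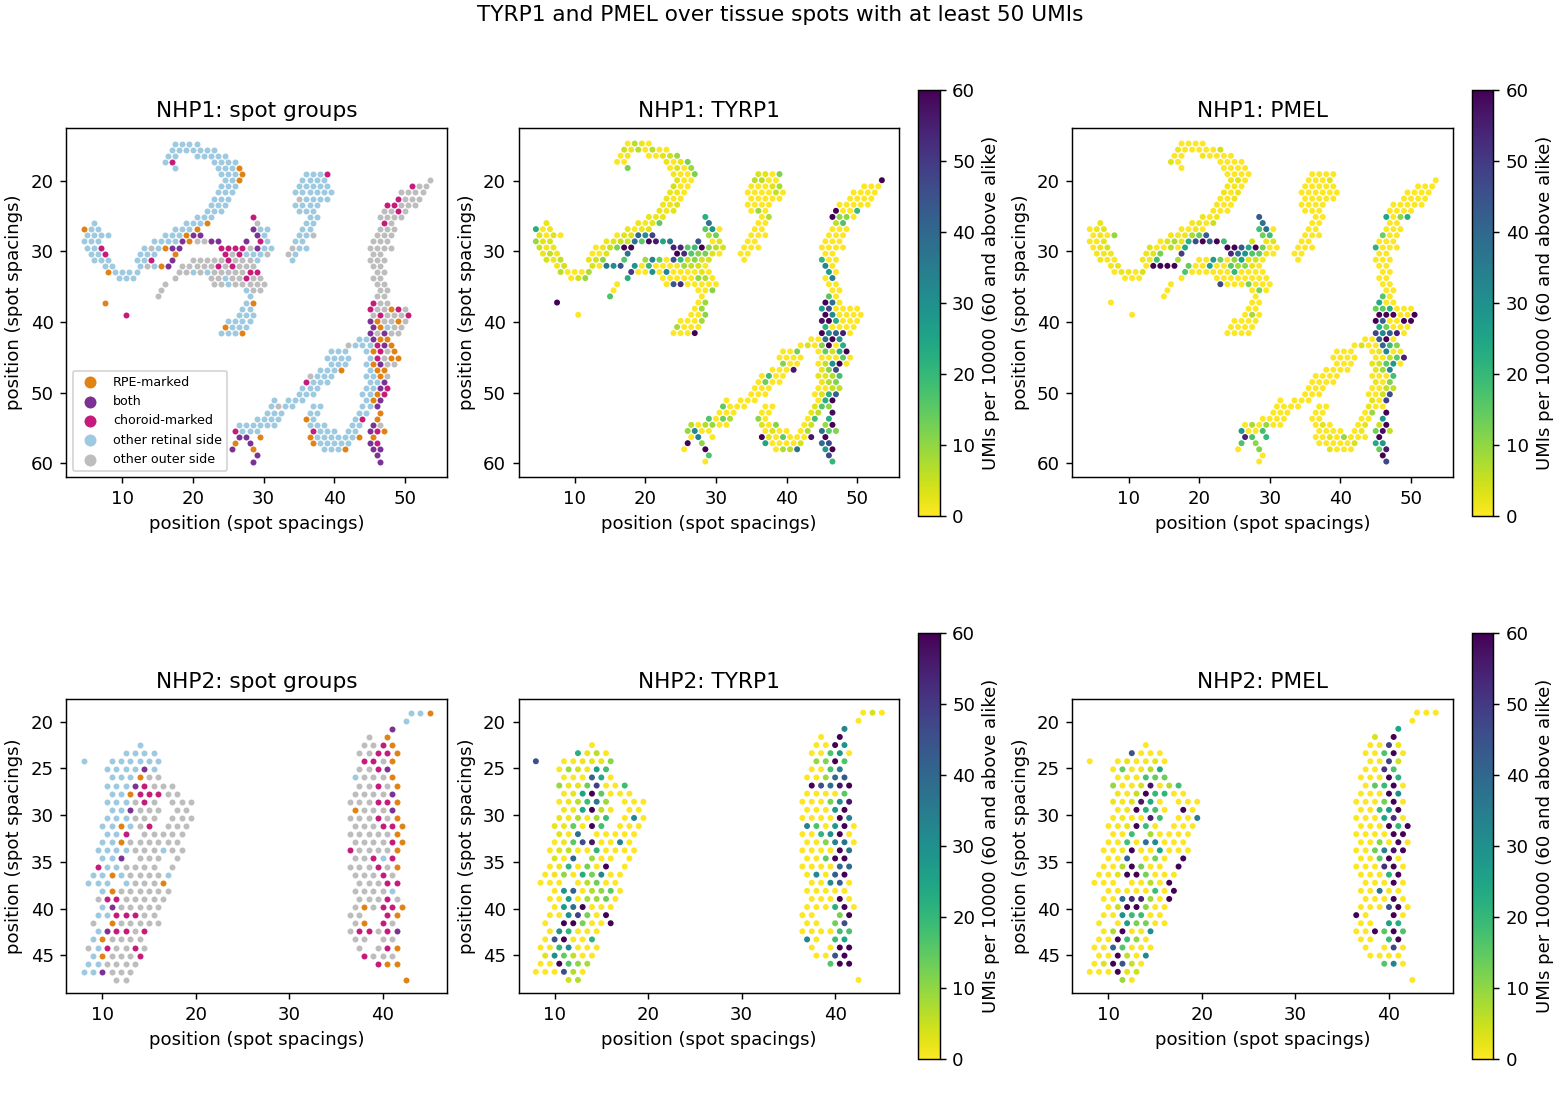
Spots with at least 50 UMIs at their positions in spot spacings, for NHP1 (top) and NHP2 (bottom). The left panels colour the spot groups, and the others show UMIs per 10000 of TYRP1 and PMEL, with values of 60 and above drawn alike. High values of both genes run along the band of spots marked by the RPE and choroid lists and also lie in unmarked outer spots. In NHP2 the unmarked outer spots held 41.5% of the PMEL and 30.5% of the TYRP1 UMIs of the tissue. The retina beside the band is low on this scale.

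The members were higher in marked spots than in all other used spots pooled, most of whose UMIs came from the retinal side. Summed over the members, the level in marked spots was 7.05 times (6.42 to 7.75) that of all other used spots in NHP1, and 5.45 times (4.83 to 6.15) in NHP2. For PMEL the ratios were 8.02 (6.85 to 9.41) and 4.94 (4.09 to 5.95), and for TYRP1 they were 6.21 (5.46 to 7.07) and 6.38 (5.37 to 7.57). EDN3 stood at 9.77 times (6.80 to 14.2) in NHP1 and 3.76 times (2.24 to 6.19) in NHP2. All 4 members with at least 20 UMIs in NHP1 and all 3 in NHP2 were past 2-fold, beside 8.32% of 7792 genes in NHP1 and 7.91% of 6394 in NHP2. Over all genes the median ratio was 0.878 and 0.863. The size depended on the scale, and counted per spot the summed ratio was 4.36 in NHP1 and 2.40 in NHP2. Against unmarked outer spots alone, choroid-marked spots had a summed ratio of 1.04 (0.883 to 1.22) in NHP1 and 1.92 (1.64 to 2.25) in NHP2. Counted per spot, that ratio was 2.72 (2.31 to 3.19) and 2.43 (2.07 to 2.84). Unmarked outer spots stood at 30.8 and 30.7 per 10000 for the summed members, and RPE-marked spots at 41.6 and 35.6.

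MLANA was too scarce in NHP2 to compare its place between the animals. In NHP1 its level was 6.64 times (3.71 to 12.0) higher in marked than in other spots. In NHP2 the marked spots held 0 MLANA UMIs, which allows up to 0.271 per 10000, and all 7 UMIs lay outside them, 6 of these on the outer side. The interval of its ratio there ran up to 4.34 and overlapped that of NHP1.

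**Figure D2:**
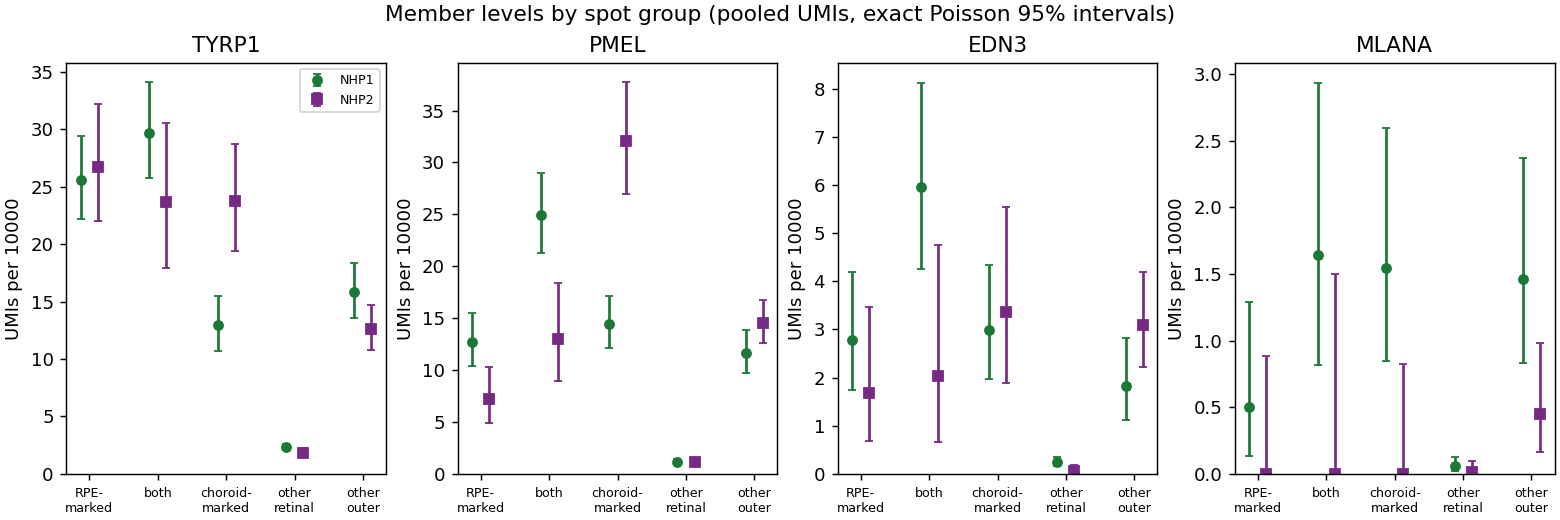
Level of each member, in UMIs per 10000, in the 5 spot groups of NHP1 (circles) and NHP2 (squares), with exact Poisson 95% intervals from the pooled UMIs of a group. TYRP1 stays between 23.6 and 29.7 in RPE-marked and both-marked spots, and PMEL in NHP2 is highest in choroid-marked spots, at 32.0.

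The TYRP1 intervals of RPE-marked spots overlapped between the animals. There it stood at 25.6 per 10000 (22.2 to 29.4) in NHP1 and 26.7 (22.0 to 32.2) in NHP2. Choroid-marked spots had 12.9 (10.7 to 15.5) in the first animal and 23.7 (19.4 to 28.7) in the second. The level in choroid-marked spots was thus 0.504 times (0.398 to 0.636) that in RPE-marked spots in NHP1 and 0.889 times (0.675 to 1.17) in NHP2. The first interval lay below 1 and the second included it, though the second did not do so under every setting.

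PMEL leaned the other way in NHP2. Its level was 7.22 per 10000 (4.87 to 10.3) in RPE-marked and 32.0 (27.0 to 37.7) in choroid-marked spots there, a ratio of 4.44 (2.98 to 6.82). In NHP1 it was 12.7 (10.4 to 15.5) and 14.5 (12.1 to 17.2), a ratio of 1.13 (0.869 to 1.49). The NHP1 ratio was not stable, since it was 2.75 with an RPE list that lacked TTR, RGR and ENPP2 and 0.766 with endothelial genes alone as the choroid list. In the larger tissue piece of NHP1 the PMEL ratio was 1.004 (0.70 to 1.43) and in the next it was 2.18 (1.30 to 3.81), while both pieces of NHP2 were near 4, at 4.35 and 3.83.

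EDN3 stood at 2.98 per 10000 in choroid-marked and 2.78 in RPE-marked spots of NHP1, and its ratio of 1.07 had an interval of 0.589 to 1.98. In NHP2 the levels were 3.36 and 1.68, with a ratio of 1.995 (0.766 to 5.78). MLANA had 14 UMIs in choroid-marked and 4 in RPE-marked spots of NHP1, a ratio of 3.06 (0.962 to 12.8). Each of these intervals included 1, but not under every setting. MLANA in NHP1 was at 7.16 (1.76 to 62.9) without TTR, RGR and ENPP2 in the RPE list, 5.45 (1.13 to 51.8) with the stricter cut and 1.04 (0.153 to 6.17) in choroid spots with little sclera signal. EDN3 was at 3.19 (1.597 to 7.07) in NHP1 with the shorter RPE list and at 5.11 (2.37 to 12.2) in NHP2 with Leiden clusters. Of the 3 members with at least 20 UMIs in these groups, 0 were past 2-fold higher and 0 past 2-fold lower in the choroid of NHP1, beside 8.58% and 9.01% of 1643 genes. In NHP2, PMEL was past 2-fold higher and 0 were lower, beside 21.8% and 27.1% of 760 genes, so that being past 2-fold was common among all genes of that section.

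Spots marked by both lists, where the layers meet within a spot width, had the highest TYRP1, PMEL and EDN3 levels of the groups in NHP1, at 29.7, 24.9 and 5.97 per 10000. PMEL there was 1.96 times (1.52 to 2.53) its level in RPE-marked and 1.72 times (1.36 to 2.18) that in choroid-marked spots. In NHP2 the 12 such spots had a PMEL level of 13.0 per 10000, which was 0.407 times (0.268 to 0.601) that in choroid-marked spots.

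The balance of TYRP1 and PMEL differed between RPE-marked and choroid-marked spots in both animals. Because both genes are read from the same spots, the share of TYRP1 among their summed UMIs does not depend on the total of a spot, although their capture may differ, so only differences in this share are described. This measure was chosen after the levels had been seen. In RPE-marked spots the share was 66.8% (61.2 to 72.0) in NHP1 and 78.7% (71.0 to 85.2) in NHP2. In choroid-marked spots it was 47.2% (40.8 to 53.6) and 42.6% (36.3 to 49.0). Spots marked by both lists lay between, at 54.4% and 64.4%. Unmarked retinal spots had 66.6% (61.7 to 71.2) in NHP1, close to its RPE-marked spots, and 60.6% (52.8 to 68.0) in NHP2, and unmarked outer spots had 57.5% and 46.4%. A high share is thus not particular to RPE-marked spots. The intervals of RPE-marked and choroid-marked spots did not overlap in either section, and the order was the same in each of the 2 largest pieces of both.

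Single spots showed the same order. Among spots with at least 3 UMIs of the pair, TYRP1 exceeded PMEL in 24 of 31 RPE-marked spots of NHP1 and 12 of 16 in NHP2. PMEL exceeded TYRP1 in 13 of 20 choroid-marked spots of NHP1 and 18 of 32 in NHP2. The spot with the second most TYRP1 in NHP1 had 441 UMIs of the RPE list, 21 of TYRP1 and 4 of PMEL, with 0 of MLANA and EDN3. In NHP2 the spot with the most TYRP1 had 310 UMIs of the RPE list, 19 of TYRP1 and 1 of PMEL. Other spots high in TYRP1 were also high in PMEL. In NHP1 a single spot on the outer side had the most of both genes. It held 30 UMIs of PMEL, 26 of TYRP1, 7 of EDN3, 2 of MLANA and 18 of the RPE list. An RPE-marked spot of NHP1 had 18 UMIs of each gene. The spot with the second most TYRP1 in NHP2, on the outer side, had 13 of TYRP1 and 10 of PMEL.

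With spots ordered by the level of the RPE list, TYRP1 and PMEL parted. TYRP1 was highest where the RPE list was highest, at 36.5 per 10000 (28.1 to 46.6) in the 8 spots of NHP1 and 33.0 (25.7 to 41.6) in the 18 spots of NHP2 with at least 10 times the level of the section. These intervals overlapped those at 5 to 10 times, where TYRP1 stood at 27.5 (22.9 to 32.8) and 24.0 (18.3 to 30.9). PMEL was highest at intermediate RPE levels, at 22.0 (18.9 to 25.4) in the 49 spots of NHP1 with 2 to 5 times the section level and at 18.2 (13.4 to 24.2) in the 34 spots of NHP2 with 1 to 2 times. In the spots richest in RPE genes PMEL stood at 9.12 (5.21 to 14.8) and 6.04 (3.21 to 10.3). The TYRP1 share there was 80.0% (69.6 to 88.1) in NHP1 and 84.5% (75.0 to 91.5) in NHP2. EDN3 had 5 and 1 UMIs and MLANA 1 and 0 in these spots. Spots were binned by the choroid list as well. At 10 times the section level or more, TYRP1 stood at 13.2 (7.38 to 21.7) in NHP1. In NHP2 it stood at 35.5 (22.7 to 52.8), an interval that overlapped that of the spots richest in RPE genes. The bins were also chosen after the group levels had been seen.

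**Figure D3:**
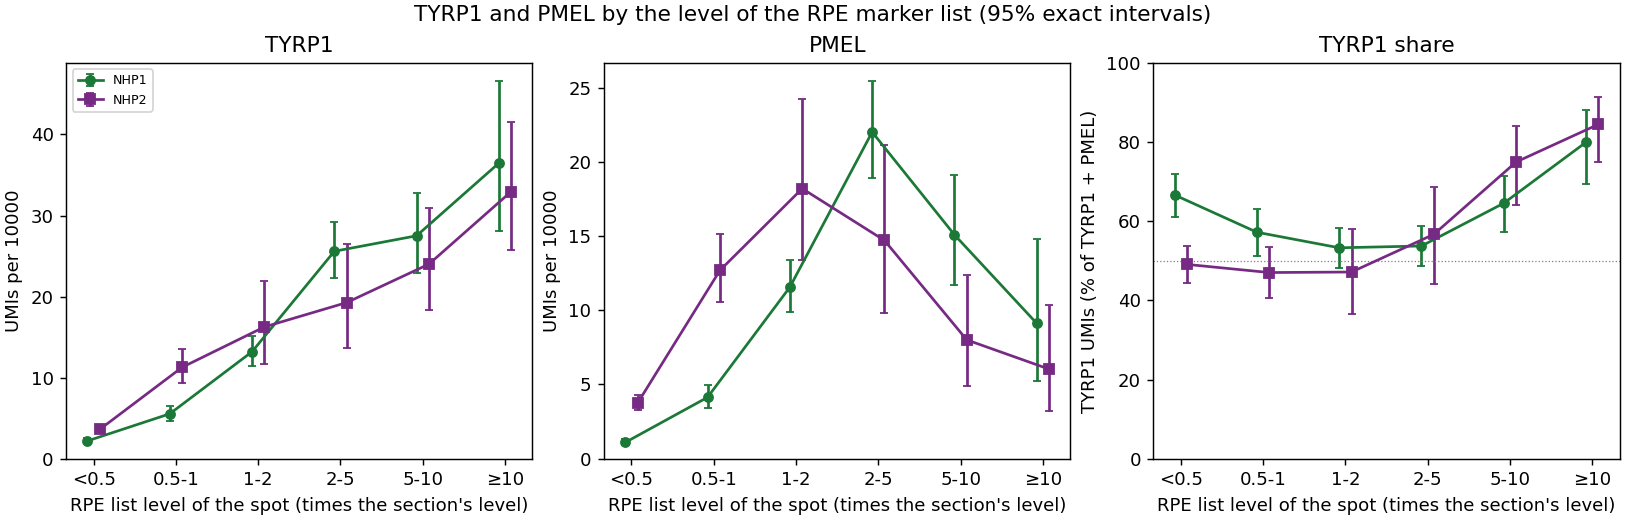
TYRP1 and PMEL levels in UMIs per 10000 and the TYRP1 share of their summed UMIs in percent, against the RPE list level of a spot relative to its section, with exact 95% intervals. TYRP1 is highest in the bin with the most RPE signal in both sections, with intervals that overlap those of the bin before. PMEL is highest in a middle bin, and the share reaches 80.0% and 84.5% in the last bin.

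Per 10000 UMIs, distance from spots marked by the RPE list gave the members an asymmetric profile across the eye wall. On the outer side, 1 spot spacing away, PMEL stood at 29.9 per 10000 (25.3 to 35.2) in NHP1 and 51.6 (44.4 to 59.7) in NHP2, against 18.3 (16.2 to 20.7) and 9.38 (7.19 to 12.0) in all spots marked by the RPE list. On the retinal side at the same distance it was 2.14 and 1.49. Per 10000, neighbours of the RPE on its outer and retinal sides thus had PMEL levels whose intervals were far apart. Retinal spots at 1 spacing were deeper, with median UMIs of 3471.5 and 4348 against 1104 and 469 outward. Counted per spot, PMEL at 1 spacing was 4.20 outward and 0.926 on the retinal side in NHP1, and 2.86 and 0.971 in NHP2. TYRP1 at 2 spacings was 2.67 and 1.15 per spot in NHP1, but 1.32 and 1.61 in NHP2, where its order turned.

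Over all spots marked by the RPE list, alone or with the choroid list, TYRP1 was 27.5 per 10000 in NHP1. At 1 spacing outward it was 28.7, with overlapping intervals. In NHP2 the levels were 25.6 and 38.1, and the intervals of 21.9 to 29.7 and 31.9 to 45.1 were separate. The order of TYRP1 turned when counted per spot, with 4.84 and 4.03 UMIs in NHP1 and 3.76 and 2.11 in NHP2, while PMEL stayed higher outward, with 3.23 and 4.20 in NHP1 and 1.38 and 2.86 in NHP2. EDN3 went from 4.24 to 5.91 in NHP1 and from 1.81 (0.938 to 3.17) to 9.03 (6.18 to 12.7) in NHP2. MLANA in NHP1 was 1.03 in all spots marked by the RPE list, 2.65 at 1 spacing and 2.72 at 2 spacings outward. Its 4 UMIs at 1 spacing outward in NHP2 gave 1.13 per 10000, while all spots marked by the RPE list there had 0. From 3 spacings outward PMEL was down to 3.84 and 5.87, and TYRP1 to 7.41 and 5.72. The choroid list was also highest at 1 spacing outward, at 23.2 and 29.1 per 10000.

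**Figure D4:**
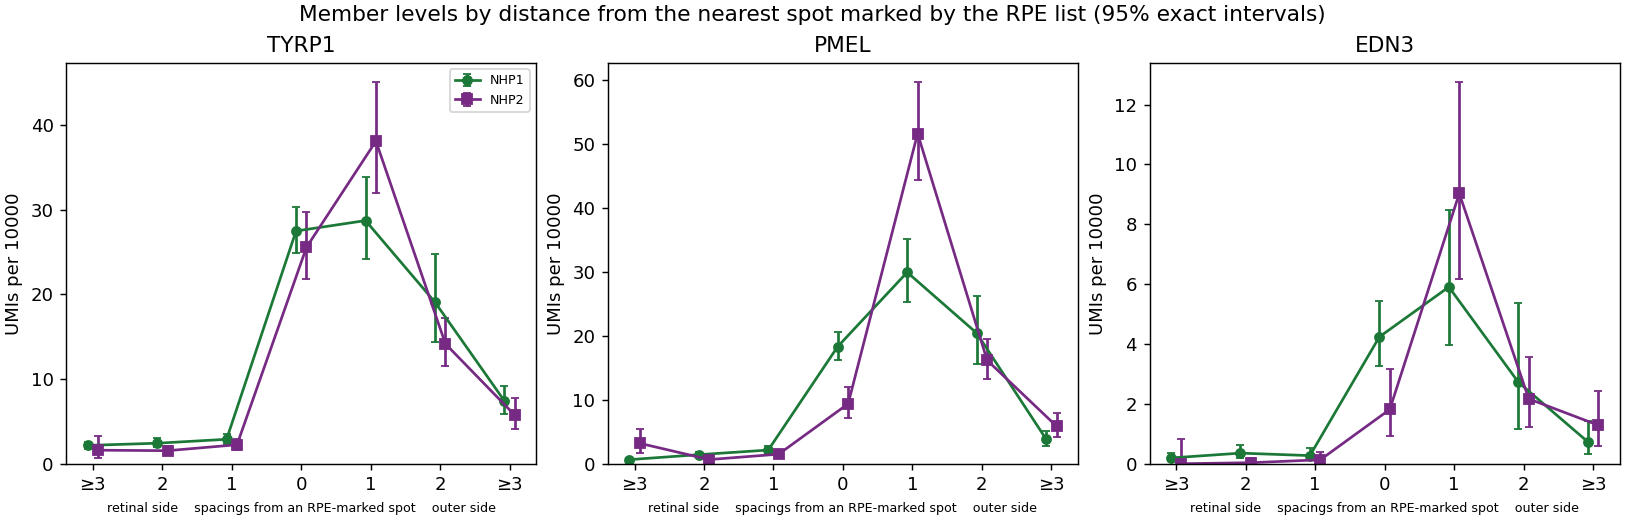
Levels of TYRP1, PMEL and EDN3 in UMIs per 10000 against the distance in spot spacings from the nearest spot marked by the RPE list, retinal side to the left and outer side to the right, with exact Poisson 95% intervals. PMEL and EDN3 have their highest value at 1 spacing on the outer side in both sections, and the retinal side stays low on this scale.

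Per 10000 UMIs, PMEL and TYRP1 levels on the retinal side were below those of spots far from the tissue. Unmarked retinal spots had 1.18 PMEL and 2.35 TYRP1 UMIs per 10000 in NHP1, and 1.19 and 1.84 in NHP2. Spots off the tissue and more than 3 spacings from it had 2.52 and 4.73 per 10000 in NHP1 and 6.78 and 9.60 in NHP2, from sums of 25, 47, 12 and 17 UMIs. At 2 spacings from the tissue of NHP1, PMEL was at 1.07 (0.462 to 2.11) per 10000. Per spot the order was the opposite, with 0.489 PMEL and 0.974 TYRP1 UMIs in the retinal spots of NHP1 against 0.00818 and 0.0154 beyond 3 spacings. The retinal values are not read as expression in the retina, and the source of these UMIs was not tested. Unmarked spots of the outer side had PMEL at 11.7 per 10000 in NHP1 and 14.6 in NHP2, above the retinal ones on this scale. Counted per spot, the outer over retinal ratio of PMEL was 1.97 (1.53 to 2.53) in NHP1 and 1.16 (0.871 to 1.55) in NHP2, and that of TYRP1 was 1.33 (1.096 to 1.62) and 0.650 (0.506 to 0.840), so that the order depended on the scale in NHP2.

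Other genes of melanin synthesis and the melanosome were sparse. Of 22 such genes, 13 had at least 10 UMIs in the tissue of NHP1 and 11 in NHP2. TYR, the enzyme that starts melanin synthesis, had 9 and 0 UMIs. OCA2, which encodes a melanosomal channel protein, had 0 in both. At least 20 UMIs were present for 10 genes of NHP1, of which 5 were at least 2-fold higher in marked spots, and for 8 of NHP2, of which 4 were, beside 8.32% and 7.91% of all genes tested. CD63, GPNMB, HPS1 and MLPH were past 2-fold in both. For CD63 this was not particular to marked spots. In NHP1 unmarked outer spots had 7.22 per 10000 of it, beside 7.57 in RPE-marked and 6.73 in choroid-marked spots. In NHP2 these levels were 8.53, 8.90 and 11.4. GPNMB in the same order was at 4.38, 6.44 and 4.64 in NHP1 and at 4.38, 7.46 and 7.39 in NHP2. MLPH was at 1.19, 1.51 and 1.44 in NHP1 and at 1.51, 1.68 and 4.26 in NHP2.

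GPNMB, a membrane glycoprotein related to PMEL, had 255 UMIs in NHP1 and 166 in NHP2 and marked-over-other ratios of 7.78 (6.02 to 10.1) and 6.19 (4.502 to 8.50). MLPH, the adaptor that links melanosomes to their motor, had ratios of 8.001 (4.80 to 13.5) and 5.31 (3.09 to 9.07). CD63, a tetraspanin of lysosome-related organelles that serves PMEL sorting, had 3.34 (2.80 to 3.99) and 2.99 (2.34 to 3.79). RAB27A, the GTPase that recruits MLPH, had a ratio of 9.32 (4.53 to 20.04) in the first animal and 1.30 (0.440 to 3.18) in the second. The choroid over RPE ratio of GPNMB in NHP2 was 0.991 (0.588 to 1.67), beside 4.44 for PMEL.

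The genes of the HPS group that traffic melanosome cargo were mixed. HPS1 had a marked-over-other ratio of 6.26 (3.05 to 13.0) in NHP1 and 2.17 (0.893 to 4.77) in NHP2. HPS4 was at 0.620 and 0.745 and HPS3 at 0.832 and 0.501, all with intervals that included 1. DTNBP1, a subunit of the BLOC-1 sorting complex, was at 0.676 (0.443 to 0.998) and 0.438 (0.206 to 0.829).

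Of the 6 pigment transcription factors, OTX2 and TFAP2A reached 20 UMIs, and 0 of these were past 2-fold in either section. OTX2, a regulator of RPE and photoreceptor identity, was at 0.941 (0.707 to 1.24) and 0.764 (0.461 to 1.21) in marked over other spots. MITF, the main regulator of pigment cell genes, had 1 UMI in each section, a level too low to place.

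EDN3 and its receptor EDNRB were both higher in marked than in other used spots, but neither was particular to marked spots. EDNRB stood at 7.49 per 10000 in unmarked outer spots of NHP1, beside 7.70 in RPE-marked and 6.18 in choroid-marked spots. In NHP2 these levels were 3.02, 1.20 and 6.72. Unmarked outer spots of NHP2 held 41 of the 72 EDN3 UMIs and 40 of the 100 EDNRB UMIs. EDNRB had 334 UMIs in NHP1 and 100 in NHP2, and its marked-over-other ratio was 5.21 (4.18 to 6.49) and 4.92 (3.24 to 7.43). ECE1, the protease that releases active endothelins, was at 3.63 (2.37 to 5.53) and 2.25 (1.24 to 3.93). In NHP2 EDNRB was 5.59 times (2.15 to 18.4) higher in choroid-marked than RPE-marked spots, and in NHP1 the ratio was 0.803 (0.549 to 1.17). The KIT receptor, which carries melanocyte growth signals, had marked-over-other ratios of 0.416 (0.148 to 0.948) and 1.22 (0.457 to 2.77). EDN1, KITLG and MC1R had 0 UMIs in both sections.

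Genes of the neural crest lineage, which choroidal melanocytes share with Schwann cells, were checked beside the members. SOX10 had 43 and 17 UMIs with a marked-over-other ratio of 7.32 (3.84 to 14.2) in NHP1 and 3.41 (1.04 to 10.1) in NHP2. It was not particular to marked spots. Unmarked outer spots of NHP1 had 0.913 per 10000, beside 1.14 in RPE-marked and 0.883 in choroid-marked spots. In NHP2 these levels were 0.679, 0.481 and 0.448, and unmarked outer spots held 9 of the 17 UMIs. PAX3 had 10 and 7 UMIs. S100B, which glia also express, had ratios of 1.23 (0.678 to 2.101) and 0.404 (0.107 to 1.09), whose intervals included 1. The summed list was at 11.2 per 10000 in choroid-marked and 11.9 in RPE-marked spots of NHP1, and at 13.0 and 2.89 in NHP2. The cell types behind the member UMIs in mixed spots were not tested.

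**Figure D5:**
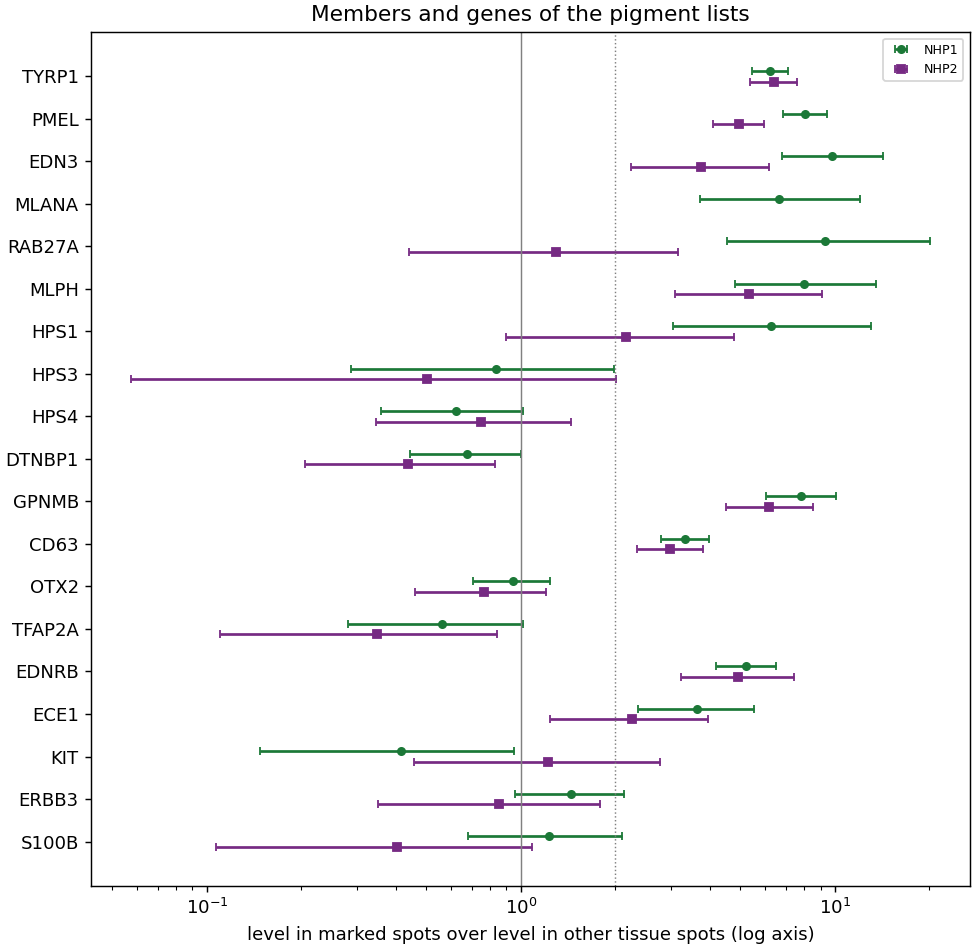
Level in marked over level in other tissue spots, on a log axis, for members and for most listed genes with at least 20 UMIs in both sections, with 95% conditional binomial intervals for NHP1 (circles) and NHP2 (squares). The solid line is 1 and the dotted line 2. GPNMB, MLPH, CD63 and EDNRB lie right of 2 with TYRP1, PMEL and EDN3, and OTX2 and DTNBP1 lie left of 1.

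Among 3396 genes with at least 50 UMIs in both sections, the spot pattern of PMEL was most like that of TYRP1, with a Pearson r of 0.534 over 509 spots of NHP1 and 0.520 over 306 of NHP2. Next to PMEL came CCL26, a chemokine, with 0.575 and 0.464, then EDNRB with 0.575 and 0.443, PZP and APOE. For TYRP1 the nearest genes were PMEL, EFEMP1, EDNRB, CCL26 and APOE, and for EDN3 they were PMEL, CCL26, EDNRB, SDC2 and PLTP. The spots of a section share 1 library and differ in depth, and these values only describe likeness. The spatial score of the authors' software, Moran's I, which is high for genes whose neighbouring spots are alike, ranked PMEL 20 and TYRP1 45 of 13804 genes in NHP1, and TYRP1 55 and PMEL 67 of 12542 in NHP2. EDN3 ranked 135 and MLANA 379 in NHP1, but 5249 and 3355 in NHP2, where their scores of 0.0024 and 0.015 were near 0.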

How the data were processed

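Visium spatial transcriptomes of 2 uninjected areas, 1 per animal, were used. The deposited values are raw counts of UMIs for every gene in every spot, which the authors made with Space Ranger 2.1.0 against Mmul_10 with transgene sequences added, together with spot positions and the Moran's I score of each gene. The labels describe the tissue both as fresh frozen and as fixed earlier, which was not resolved. Tissue spots held 1484784 UMIs in NHP1 and 805726 in NHP2.

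Levels are UMIs per 10000 of all UMIs in the same spots, pooled within a section, with Python 3.11.15, numpy 2.4.6 and scipy 1.17.1. Intervals at 95% are exact Poisson for UMI sums, conditional binomial for ratios and Clopper-Pearson for shares, and cover counting error only. For a gene at 0 a limit of 3 UMIs is given, which lies below the exact Poisson bound. Layer comparisons used spots with at least 50 UMIs. Background shares are genes past 2-fold among those with at least 20 UMIs. Members, lists and rules were chosen with earlier results of these data known. Genes named are the members, listed genes with at least 20 UMIs in a section (those with fewer by counts, with a few named after their values were seen), and the 5 genes with the highest lower Pearson r of log1p levels per member over spots with at least 200 UMIs. A2M, CNGB1, ECE2 and RCVRN of the lists had no entry in the feature list. Alternatives varied the cuts, lists, depth, scale and grouping, the last with Leiden clusters from scanpy 1.11.5 and leidenalg 0.10.2 at resolution 1 without the members. Thinned spots were drawn to 200 UMIs and kept the groups of the full counts. Tissue pieces, the TYRP1 share, bins of the RPE and choroid levels and sclera-poor choroid were added after seeing the data. Fold calls and intervals were tried on pooled counts simulated with the Poisson error that the intervals assume. Such counts cannot show how spots or pieces vary. No p-value was computed, since each group is 1 section. The upstream window was read from the RefSeq copy of Mmul_10. Some listed items are not reported here.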

Additional observations from a re-analysis of the deposited data

Results flagged for a closer look

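Member UMIs also lay in spots outside the tissue, which no comparison of layers used, above the limit of 3 UMIs set for a gene with no count. In NHP1 these were 236 UMIs of PMEL, 358 of TYRP1, 32 of MLANA and 35 of EDN3, and within 1 spacing of the tissue lay 193, 262, 25 and 25 of them. In NHP2 they were 30 UMIs of PMEL and 43 of TYRP1, of which 14 and 24 lay within 1 spacing. The TYRP1 share of PMEL and TYRP1 off the tissue was 60.3% (56.2 to 64.2) in NHP1 and 58.9% (46.8 to 70.3) in NHP2.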

How the results depend on the processing

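The summed members were higher in marked than in other spots under every alternative run. The ratio, 7.05 in NHP1 and 5.45 in NHP2, became 5.17 and 4.23 with at least 3 UMIs and 3 times, 5.82 and 4.27 with the endothelial choroid list, 4.36 and 2.40 per spot, 4.64 and 2.20 after thinning to 200 UMIs, 12.6 and 7.47 with Leiden clusters, 5.04 and 2.23 in the largest piece, and 5.72 in NHP1 without TTR, RGR and ENPP2. The choroid over RPE ratio of TYRP1 in NHP1 stayed below 1, at 0.788 without TTR, RGR and ENPP2, 0.343 with the endothelial list, 0.344 after thinning and 0.295 in sclera-poor choroid spots. In NHP2 its interval, which included 1 as reported, lay on either side of 1 under other settings. It lay below 1 at 0.630 (0.478 to 0.830) per spot, 0.728 (0.567 to 0.937) with the looser cut and 0.728 (0.540 to 0.976) with the endothelial list. With clusters it lay above 1, at 1.34 (1.06 to 1.69). PMEL in NHP1 had no settled side: 2.75 without TTR, RGR and ENPP2, 2.02 with at least 3 UMIs and 3 times and 2.18 in piece 2, but 0.766 with the endothelial list and 0.827 after thinning. PMEL in NHP2 stayed above 1, at 2.51 with the endothelial list and 7.23 with clusters. EDN3 in NHP1 went to 3.19, 3.03 and 7.62 under the same settings as the higher PMEL values, to 4.30 after thinning and to 0.544 with the endothelial list. The TYRP1 share in RPE-marked spots of NHP1 was 75.2%, 73.8% and 73.2% under those settings, and that of its choroid-marked spots 38.4% where sclera signal was low. MLANA in NHP1, at 3.06 with an interval that included 1, ran from 1.04 to 7.16, and its interval lay above 1 at 4.46 with the looser cut, 5.45 with the stricter one, 7.16 with the shorter RPE list and 3.83 per spot. EDN3 in NHP2 did so at 5.11 with clusters. The cause of these shifts was not tested. Clusters gave no choroid over RPE value in NHP1, where none was marked by the RPE list alone. Of all alternative values of the comparisons, 101 stayed within the interval of the value reported and 35 did not. Of the secondary values, 33 did so and 8 did not, all 8 being shares of spots with a UMI after thinning. No paired analysis was possible because each group is 1 section.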
